A study of Mus musculus with 12 samples.

Results

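The 6 genes described here are the transcription factor genes Otx2, Pou3f1, Zic2, Zic5 and Sall2 and the kinase gene Pim2. They were chosen by name, as genes of the epiblast after implantation and of the primed stem cells taken from it. The choice was made with earlier results of these data known. Shares of all genes set beside counts of the 6 are therefore descriptions and not tests. Each was read from the probe set annotated with that symbol alone, or from the one with the higher mean over all arrays where a gene had 2, which applied to Zic5. All 6 were found among the 22180 genes that the table measures through such probe sets, and none was lost to a filter on low signal, since none was applied.

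RNA was measured on 12 expression microarrays of mouse cells and tissue, with 2 arrays in each of 6 groups. The lines called rsEpiSC, which other label fields name as epiblast stem cells of an intrinsic state, were derived at embryonic day 6.5 (rsEpiSC E6.5) and at day 5.75 (rsEpiSC E5.75) and kept in IWR1 at 2.5 µM, an inhibitor of Wnt signalling, beside a further factor at 20 ng/ml, left unnamed in the labels. Epiblast stem cells (EpiSC) came from day 5.75 and were kept in FGF2 at 12 ng/ml and Activin A at 20 ng/ml with 20% KSR, a serum replacement. Epiblast tissue was taken directly from embryos of day 6.5 (epiblast E6.5) and day 5.75 (epiblast E5.75). Embryonic stem cells (ESC) came from day 3.5 and were kept in LIF, labelled as 10 µg/ml, with CHIR99021 at 3 µM, an inhibitor of the kinase GSK3, and PD0325901 at 1 µM, an inhibitor of the kinase MEK. All cultured lines grew in N2B27 medium over mouse embryonic fibroblast feeders. The ESC and EpiSC arrays were labelled as OCT4-deltaPE-GFP x C57BL/6 cells of passage 20 to 25. In the other groups the strain and passage fields count up from array to array and were not used, and no label gives the number of lines, litters or pooled embryos behind a sample. By the labels, the 2 rsEpiSC groups share their medium and differ in day of derivation, the 2 tissue groups differ in embryonic day, and rsEpiSC E5.75 and EpiSC share the day but not the medium. In the comparisons of lines with ESC, day of derivation and medium both differ and cannot be told apart. Nothing says that replicates were separate cultures or animals, so the p-values below cover only the spread among the samples at hand, possibly a technical one.

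Pluripotent cells pass from a naive state, before implantation, to a formative and then a primed state in the epiblast of the implanted embryo. Otx2 encodes a homeodomain protein that binds DNA together with the POU factor Oct4 during this transition in mouse cells, and it is later needed for the forebrain. Pou3f1, also called Oct6, encodes a POU factor that comes on early as cells leave the naive state. Zic2 and Zic5 encode zinc finger proteins of a family that works in the neural ectoderm, and Zic2 also binds enhancers in stem cells. Sall2 encodes a zinc finger protein of the spalt family, whose member Sall4 is a regulator of pluripotency. Pim2 encodes a serine/threonine kinase that promotes survival and growth and, unlike most kinases, is controlled chiefly through its amount. STAT factors downstream of cytokine receptors are known activators of Pim genes in blood cells.

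The labels were checked against markers of the cell types. The mean log2 signal over 10 naive pluripotency genes was 4.27 to 5.11 on the arrays of the other 5 groups and 8.77 to 9.16 on the ESC arrays, and that of Pou5f1, the gene for Oct4, ranged from 4.36 in rsEpiSC E5.75 to 7.03 in ESC (group means). Over 11 anterior neural ectoderm genes it was 5.85 to 5.91 in rsEpiSC E6.5, 6.04 to 6.68 in rsEpiSC E5.75, and 4.22 to 4.40 on the 8 other arrays. Over 12 fibroblast genes, which mark feeder cells, it was 5.11 to 5.21 in rsEpiSC E6.5, 5.79 to 5.87 in rsEpiSC E5.75, 5.95 to 6.41 in EpiSC, 4.88 to 5.19 in ESC and 4.60 to 4.87 in tissue. Over 14 visceral endoderm genes it stayed between 4.06 and 4.56 in all groups. Over 10 primitive streak and mesoderm genes it was 5.42 to 5.49 in epiblast E6.5 and 4.73 to 4.88 in epiblast E5.75. The cultured arrays had 4.18 to 4.54 for these genes. A part of such cells in the differences from epiblast E6.5 was not tested. The table has no detection calls and no zeros, so a low signal is not read as absence. Tissue arrays had a narrower spread of signals (interquartile range 2.23 to 2.68) than cultured arrays (3.07 to 3.31), and the median gene differed by 0.18 between epiblast E5.75 and ESC, by -0.16 between rsEpiSC E5.75 and epiblast E5.75, by -0.10 between rsEpiSC E6.5 and epiblast E6.5, and by -0.19 between EpiSC and epiblast E5.75 (log2).

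Each of the 6 genes differed among the 6 groups beyond the spread of replicates, with adjusted p between 2.84e-05 (Otx2) and 0.00570 (Pim2) in limma's moderated F test over 22180 genes. The same test called 32.0% of all genes. ESC had the lowest group mean of every one of the 6 genes. Both ESC arrays lay below the other 10 arrays for 5 of the 6, a separation that 4.56% of all genes showed. Zic5 was the exception, because its first ESC array overlapped with rsEpiSC E5.75. The gap between the higher ESC array and the lowest other array was 1.55 for Otx2, 0.84 for Pou3f1, 0.83 for Pim2, 0.50 for Zic2 and 0.07 for Sall2 (log2). The highest group was not shared: it was epiblast E5.75 for Otx2 and Pou3f1, epiblast E6.5 for Zic5, rsEpiSC E6.5 for Zic2 and Pim2, and rsEpiSC E5.75 for Sall2.

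**Figure D1:**
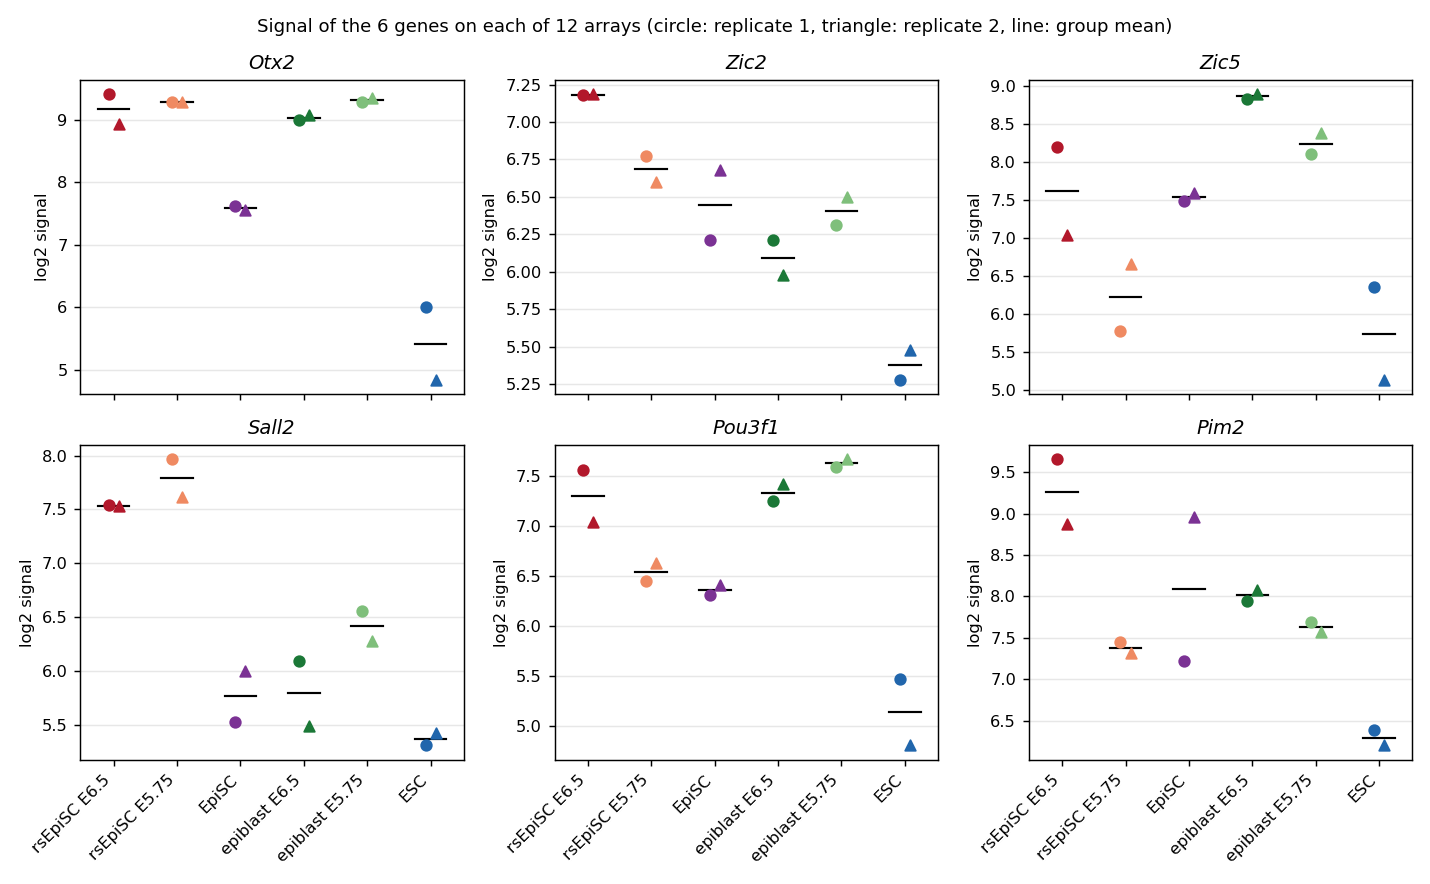
Log2 signal (vertical axis, own scale per gene) of the 6 genes on each array of the 6 groups. Circles are replicate 1, triangles replicate 2 and black lines group means. ESC has the lowest mean in every panel, while Zic5, Sall2 and Pim2 place the 2 rsEpiSC groups, EpiSC and tissue in different orders.

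Otx2 had the widest range of the 6 genes, with group means spanning 3.89 on the log2 scale. Its log2 signal was 9.41 and 8.93 in rsEpiSC E6.5, 9.29 and 9.29 in rsEpiSC E5.75, and 7.62 and 7.56 in EpiSC. In tissue it was 9.00 and 9.07 in epiblast E6.5 and 9.28 and 9.35 in epiblast E5.75, and ESC had 6.00 and 4.84. The 8 arrays of rsEpiSC and tissue thus formed one range, EpiSC lay clearly under it, and ESC lay under EpiSC. Against ESC, Otx2 was higher by 3.75 ± 0.33 in rsEpiSC E6.5 (adjusted p = 2.30e-05), by 3.87 ± 0.33 in rsEpiSC E5.75 (1.67e-05), by 2.17 ± 0.33 in EpiSC (0.00161) and by 3.89 ± 0.33 in epiblast E5.75 (1.83e-05), as differences of log2 group means ± the standard error of the limma fit with 2 arrays per group. The difference was 14.6-fold in rsEpiSC E5.75 and 4.50-fold in EpiSC. The EpiSC call was lost with only the arrays compared (limma, adjusted p = 0.0642) and kept in the other alternatives. In bulk RNA, fewer cells with the transcript and less transcript per cell cannot be told apart, here and for each gene below.

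EpiSC stood apart from the epiblast of the stage they came from in this gene. Otx2 was lower in EpiSC than in epiblast E5.75, with a log2 difference of -1.72 ± 0.33 (limma, adjusted p = 0.00345), a call kept in all alternative settings. It was 1.70 ± 0.33 higher in rsEpiSC E5.75 than in EpiSC (adjusted p = 0.0122). That second call was lost whenever any 1 of the 4 arrays compared was left out: the difference was then 1.73 and 1.67 without the first and second EpiSC array, and 1.70 without either rsEpiSC array, with adjusted p from 0.0614 to 0.101. Between rsEpiSC and tissue no difference in Otx2 was found, with intervals of -0.74 to 0.69 at E5.75 and -0.58 to 0.85 at E6.5 (95%, log2).

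For Otx2, 4 promoter windows are given in the RefSeq table for GRCm38.p6, each from 250 bases before to 50 bases after an annotated start. One of them, on the minus strand at chr14:48665060-48665359, is shown because it is the only Otx2 window with any of the motifs searched. Capitals mark GGATTA, the reverse complement of the bicoid-type homeobox motif TAATCC that Otx proteins recognise, and TTCTTGGAA, a match to the STAT motif TTCNNNGAA.
Otx2 promoter: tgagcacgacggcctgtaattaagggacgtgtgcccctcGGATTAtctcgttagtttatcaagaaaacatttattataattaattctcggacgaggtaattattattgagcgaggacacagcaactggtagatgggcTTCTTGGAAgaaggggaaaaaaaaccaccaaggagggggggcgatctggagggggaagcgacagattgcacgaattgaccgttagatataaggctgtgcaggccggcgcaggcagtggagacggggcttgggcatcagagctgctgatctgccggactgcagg
The first match begins at -211 and the second at -113 from the start. TAATCC occurs, on either strand, in 7.06% of all 32851 windows and TTCNNNGAA in 8.30%, and such matches are descriptions of letters and not of binding. The motifs were chosen after the promoters had been read, so these shares do not measure how rare the matches are.

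Pou3f1 followed Otx2 most closely of the 6 genes but placed tissue above most cultured arrays. Its log2 signal was 7.55 and 7.04 in rsEpiSC E6.5, 6.45 and 6.63 in rsEpiSC E5.75, 6.31 and 6.41 in EpiSC, 7.24 and 7.41 in epiblast E6.5, 7.59 and 7.66 in epiblast E5.75, and 5.47 and 4.81 in ESC. Tissue and rsEpiSC E6.5 shared the top of the range, rsEpiSC E5.75 and EpiSC lay next to each other in the middle, and ESC lay lowest. Pou3f1 was higher than in ESC by 2.16 ± 0.29 in rsEpiSC E6.5 (limma, adjusted p = 0.000534), by 1.40 ± 0.29 in rsEpiSC E5.75 (0.00839), by 1.22 ± 0.29 in EpiSC (0.0260) and by 2.49 ± 0.29 in epiblast E5.75 (0.000178). Both cultured lines of day 5.75 were lower than the epiblast of that day, with a log2 difference of -1.08 ± 0.29 in rsEpiSC E5.75 (adjusted p = 0.0215) and -1.26 ± 0.29 in EpiSC (0.00923). In contrast, rsEpiSC E6.5 and epiblast E6.5 did not differ (-0.03, 95% interval -0.67 to 0.60).

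Several Pou3f1 calls were lost when 1 array was left out, which leaves 1 array in its group. For rsEpiSC E5.75 against epiblast E5.75 the adjusted p was 0.0518 to 0.132 without any 1 of the 4 arrays, and it was 0.0585 after centring each array on its median, where the difference was -0.91. EpiSC against epiblast E5.75 was lost without the first EpiSC array (adjusted p = 0.0570). The EpiSC increase over ESC was lost without either EpiSC array (adjusted p = 0.0972 and 0.126) and without the second ESC array (0.172). The rsEpiSC E5.75 increase over ESC was lost without the first or second rsEpiSC E5.75 array (adjusted p = 0.0517 and 0.0850) and without the second ESC array (0.0655). The 2 increases over ESC in rsEpiSC E6.5 and epiblast E5.75 were kept in all alternatives.

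Zic2 and Zic5 lie next to each other on chromosome 14, with 1 gene model, 2610035F20Rik, between them in the RefSeq table, yet their profiles differed. Zic2 had a log2 signal of 7.18 and 7.19 in rsEpiSC E6.5, 6.77 and 6.60 in rsEpiSC E5.75, 6.21 and 6.68 in EpiSC, 6.21 and 5.98 in epiblast E6.5, 6.31 and 6.50 in epiblast E5.75, and 5.28 and 5.48 in ESC. Both rsEpiSC E6.5 arrays thus lay above all others and both ESC arrays below all others. Zic5 had 8.20 and 7.05 in rsEpiSC E6.5, 5.78 and 6.67 in rsEpiSC E5.75, 7.50 and 7.60 in EpiSC, 8.84 and 8.90 in epiblast E6.5, 8.10 and 8.39 in epiblast E5.75, and 6.36 and 5.14 in ESC. Here tissue was highest and rsEpiSC E5.75 overlapped with ESC. Over the 12 arrays the 2 genes correlated at r = 0.26, a description of arrays that share groups.

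Zic2 was higher than in ESC by 1.81 ± 0.26 in rsEpiSC E6.5 (limma, adjusted p = 0.000886), by 1.31 ± 0.26 in rsEpiSC E5.75 (0.00682), by 1.07 ± 0.26 in EpiSC (0.0299) and by 1.03 ± 0.26 in epiblast E5.75 (0.0164). In rsEpiSC E6.5 it was also higher than in epiblast E6.5, by 1.09 ± 0.26 or 2.13-fold (adjusted p = 0.0202), while rsEpiSC E5.75 and epiblast E5.75 differed by 0.28 with an interval of -0.29 to 0.85. The increase over epiblast E6.5 was lost without any 1 of the 4 arrays compared (adjusted p = 0.0511 to 0.131). Among increases over ESC, that in EpiSC was lost without either ESC array (adjusted p = 0.113 and 0.0626), the second EpiSC array (0.212), or any 1 rsEpiSC array (0.0555 to 0.0592). That in rsEpiSC E5.75 was lost without its first array. That in epiblast E5.75 was lost without the first ESC array, with only the arrays compared (limma, adjusted p = 0.126) and with array weights (0.0676). The EpiSC increase over ESC was also lost with only the arrays compared (adjusted p = 0.185) and with every probe set (0.0568). After quantile normalization the increase of rsEpiSC E6.5 over epiblast E6.5 was lost (adjusted p = 0.0541).

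Zic5 was the gene of the 6 in which rsEpiSC E5.75 lay farthest below tissue. It was lower in rsEpiSC E5.75 than in epiblast E5.75, with a log2 difference of -2.02 ± 0.45, or 0.246 times its level (limma, adjusted p = 0.00907). Against ESC it was higher by 1.88 ± 0.45 in rsEpiSC E6.5 (adjusted p = 0.0209), by 1.80 ± 0.45 in EpiSC (0.0327) and by 2.50 ± 0.45 in epiblast E5.75 (0.00261), whereas in rsEpiSC E5.75 the difference was 0.48 with an interval of -0.50 to 1.46. The shortfall against epiblast E5.75 was lost without the first rsEpiSC E5.75 array, which had the lower signal of the pair (-1.58, adjusted p = 0.0947). Without the first rsEpiSC E6.5 array, the increase of that group over ESC was 1.30 (adjusted p = 0.236), and without the second ESC array it was 1.27 (0.169). The EpiSC increase over ESC was lost without the second ESC array (1.19, adjusted p = 0.234), either EpiSC array (0.127 and 0.144) or either epiblast E6.5 array (0.0572 and 0.0573).

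The second Zic5 probe set, with the lower mean, allowed a check on the first. Its log2 signal was 7.48 and 6.85 in rsEpiSC E6.5, 5.56 and 5.89 in rsEpiSC E5.75, 6.82 and 6.93 in EpiSC, 8.17 and 8.31 in epiblast E6.5, 7.76 and 7.42 in epiblast E5.75, and 6.01 and 5.91 in ESC. Both probe sets put epiblast E6.5 at the top and rsEpiSC E5.75 and ESC at the bottom, and they correlated at r = 0.94 over 12 arrays that share groups. By the second probe set, both rsEpiSC E5.75 arrays lay below both ESC arrays, so that ESC was not the lowest group, and the difference between rsEpiSC E6.5 and epiblast E6.5 passed (-1.07, adjusted p = 0.0293), which it did not by the first (-1.24 ± 0.45, adjusted p = 0.0894). So did rsEpiSC E5.75 against EpiSC, which was -1.15 ± 0.28 by the second (adjusted p = 0.0425) and -1.33 ± 0.45 by the first (0.164). The EpiSC increase over ESC did not pass by the second probe set (0.91, adjusted p = 0.0855).

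**Figure D2:**
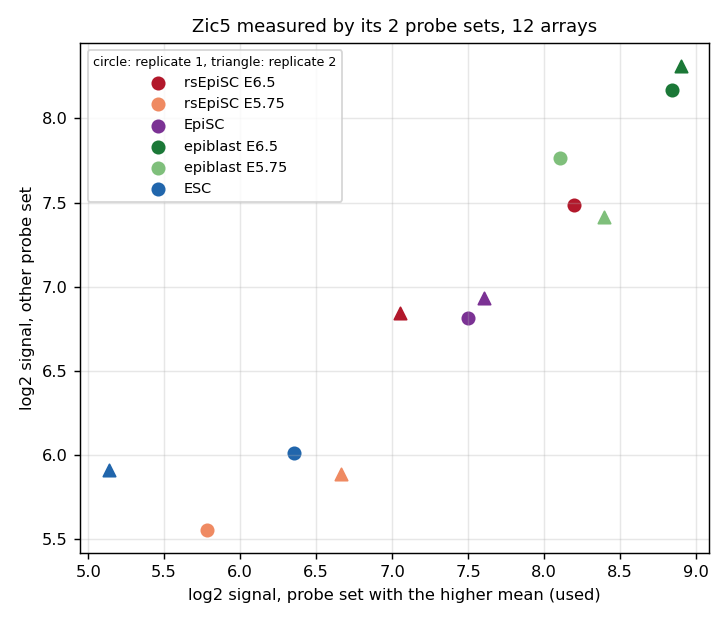
Log2 signal of Zic5 on 12 arrays by the probe set used (horizontal axis) and by its other probe set (vertical axis), coloured by group, with circles for replicate 1 and triangles for replicate 2. The 4 tissue arrays lie toward the upper right and the ESC and rsEpiSC E5.75 arrays at the lower left.

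Sall2 set the rsEpiSC lines apart. Its log2 signal was 7.54 and 7.53 in rsEpiSC E6.5, 7.97 and 7.62 in rsEpiSC E5.75, 5.52 and 6.00 in EpiSC, 6.09 and 5.49 in epiblast E6.5, 6.55 and 6.27 in epiblast E5.75, and 5.31 and 5.42 in ESC. All 4 rsEpiSC arrays lay above the other 8 with a gap of 0.98, a separation shown by 2.86% of all genes and by none of the other 5 genes described here. Sall2 was higher in rsEpiSC E5.75 than in EpiSC by 2.03 ± 0.29 or 4.08-fold (limma, adjusted p = 0.00204). It was higher in rsEpiSC E6.5 than in epiblast E6.5 by 1.74 ± 0.29 (adjusted p = 0.00375) and in rsEpiSC E5.75 than in epiblast E5.75 by 1.38 ± 0.29 (0.00735). The last of these calls was lost without the first rsEpiSC E5.75 array (1.21, adjusted p = 0.0761), and the other 2 were kept in all alternatives.

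Against ESC, Sall2 was higher by 2.17 ± 0.29 in rsEpiSC E6.5 (limma, adjusted p = 0.000550), by 2.43 ± 0.29 in rsEpiSC E5.75 (0.000206) and by 1.05 ± 0.29 in epiblast E5.75 (0.0256). EpiSC and ESC differed by 0.40, with an interval of -0.24 to 1.04. The increase in epiblast E5.75 was lost without the first ESC array (0.99, adjusted p = 0.0894), the second ESC array (1.10, 0.0665) or the first epiblast E5.75 array (0.91, 0.107), and after centring arrays on their medians (0.90, 0.0506). Genes of the anterior neural ectoderm were higher in the same groups as Sall2, with none lower. In rsEpiSC E5.75, 7 of 11 rose against EpiSC (1.56% of all genes higher) and 9 of 11 against epiblast E5.75 (11.5%). In rsEpiSC E6.5 against epiblast E6.5, 5 of 11 rose (6.72%). Among them, Sox1, a neural plate factor, differed by 2.57 ± 0.31, 3.73 ± 0.31 and 3.70 ± 0.31 in these comparisons. The part of these genes, or of cells that carry them, in the differences of Sall2, Zic2 and Otx2 was not tested.

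Pim2 reached its highest level in rsEpiSC E6.5. Its log2 signal was 9.65 and 8.88 in rsEpiSC E6.5, 7.45 and 7.32 in rsEpiSC E5.75, 7.22 and 8.96 in EpiSC, 7.95 and 8.08 in epiblast E6.5, 7.70 and 7.58 in epiblast E5.75, and 6.39 and 6.21 in ESC. The EpiSC arrays differed from each other by more than any other pair of replicates in these 6 genes (SD 1.23), and the second of them lay within the range of rsEpiSC E6.5. Pim2 was higher than in ESC by 2.97 ± 0.45 or 7.83-fold in rsEpiSC E6.5 (limma, adjusted p = 0.00119), a call kept in all alternatives. It was higher by 1.79 ± 0.45 in EpiSC (adjusted p = 0.0327), which was 0.92 without the second EpiSC array (0.217). The EpiSC call was also lost without either ESC array (adjusted p = 0.0766 and 0.133), either rsEpiSC E5.75 array (0.0555 and 0.0556) or either epiblast E6.5 array (0.0570 and 0.0571).

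The other Pim2 differences did not pass, and the wide EpiSC pair entered the estimate of spread for all of them. Epiblast E5.75 differed from ESC by 1.34 ± 0.45 (adjusted p = 0.0510), which became 0.00783 and 0.00818 without the first or second EpiSC array. Between rsEpiSC E6.5 and rsEpiSC E5.75 the difference was 1.88 ± 0.45 (adjusted p = 0.267, against 0.0337 without either EpiSC array), and both arrays of rsEpiSC E6.5 lay above both of rsEpiSC E5.75. Between rsEpiSC E6.5 and epiblast E6.5 it was 1.25 ± 0.45 (adjusted p = 0.0863, against 0.0182 and 0.0188). Between rsEpiSC E5.75 and ESC it was 1.09 ± 0.45 (adjusted p = 0.178, against 0.0311 and 0.0325).

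The other genes of the Pim family did not share this profile. Pim1 averaged 5.48 ± 0.14 in rsEpiSC E6.5 against 7.44 ± 0.34 in ESC (SD, n = 2 each), a log2 difference of -1.96 ± 0.45 (limma, adjusted p = 0.0179). It was also lower in epiblast E5.75 than in ESC (-1.64 ± 0.45, adjusted p = 0.0243), as was Pim3 (-1.68 ± 0.36, 0.00705). Among 9 genes of LIF signalling and its factor STAT3, none was higher and 5 were lower in rsEpiSC E6.5 than in ESC, where 4.55% of all genes were lower. The counts were the same in epiblast E5.75 against ESC, where 10.8% of all genes were lower. Tfcp2l1 and Klf4 belong to these 9 and also to the 10 naive pluripotency genes, all of which were lower in both comparisons. Stat3 itself was lower, with differences from ESC of -2.12 ± 0.31 in rsEpiSC E6.5 (adjusted p = 0.000872) and -2.29 ± 0.31 in epiblast E5.75 (0.000441). For the receptor gene Lifr they were -1.80 ± 0.30 in rsEpiSC E6.5 (adjusted p = 0.00251) and -1.18 ± 0.30 in epiblast E5.75 (0.0168), but its mean was 7.29 in epiblast E6.5 against 7.40 in ESC, a pair that was not among the comparisons tested. Pim2 is also known from lymphoid cells. Of 5 lymphoid genes, Laptm5 and Cd3e were lower than in ESC in rsEpiSC E6.5, rsEpiSC E5.75, EpiSC and epiblast E5.75. Ptprc, Cd52 and Cd79a did not pass in any of these. Of all genes, 8.96%, 10.3%, 6.29% and 21.5% were called in these comparisons, in that order. Laptm5 averaged 4.30 to 5.07 in the other 5 groups and 9.81 in ESC. Ptprc, which encodes the pan-leukocyte protein CD45, averaged 2.45 to 2.87 in the other 5 and 2.55 in ESC, under the median of 4.214 over all signals. A part of lymphoid cells in the Pim2 signal was not tested.

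The Pim2 promoter window of RefSeq, on the plus strand at chrX:7878056-7878355 (GRCm38.p6), is shown because it alone among the 8 windows found for 4 of the 6 genes (Otx2, Zic5, Sall2 and Pim2) holds the POU octamer ATGCAAAT. It holds the motif once as ATTTGCAT, its reverse complement, and once as ATGCAAAT, and also holds ATCAAAG, the reverse complement of the TCF/LEF motif CTTTGAT. Capitals mark these 3 matches, which do not overlap.
Pim2 promoter: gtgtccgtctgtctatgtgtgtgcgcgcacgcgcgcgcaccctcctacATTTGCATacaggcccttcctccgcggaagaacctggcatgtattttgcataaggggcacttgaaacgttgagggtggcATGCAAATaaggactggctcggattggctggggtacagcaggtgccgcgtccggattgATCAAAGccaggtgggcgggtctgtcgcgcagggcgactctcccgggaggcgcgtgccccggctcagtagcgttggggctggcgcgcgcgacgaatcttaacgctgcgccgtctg
They begin at -202, -123 and -65 from the start. The octamer occurs, on either strand, in 1.74% of all 32851 windows and at least 2 times in 0.107%, and CTTTGAT occurs in 3.73%. The motifs were chosen after the promoters had been read, so these shares do not measure how rare the matches are. Such matches describe letters in the window and are not shown to be sites.

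The comparisons differed in how many of the 6 genes passed. In EpiSC against ESC, 5 of 6 were higher and none lower, where 6.29% of all genes were called and 3.60% were higher. In rsEpiSC E6.5 against ESC, all 6 were higher (8.96% of genes called, 4.41% higher), with Zic5 lost in 4 of 21 alternatives, in rsEpiSC E5.75 against ESC 4 of 6 (10.3% called, 5.49% higher), and in epiblast E5.75 against ESC 5 of 6 (21.5% called, 10.6% higher). The median difference of the 6 genes was 1.51 in EpiSC, 2.16 in rsEpiSC E6.5, 1.36 in rsEpiSC E5.75 and 1.91 in epiblast E5.75, beside 0.0049, 0.019, 0.017 and 0.18 over all genes. These comparisons share the ESC arrays, and the 6 genes were chosen with earlier results known, so the counts describe the named genes only. The gene not called in EpiSC was Sall2, in epiblast E5.75 Pim2, and in rsEpiSC E5.75 Zic5 and Pim2.

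Among the rsEpiSC lines, EpiSC and tissue, the direction was mixed. In rsEpiSC E5.75 against EpiSC, Otx2 and Sall2 were higher and the other 4 did not pass (3.87% of genes called, 1.56% higher). Of those 4, Zic5 passed as lower by its second probe set alone. In rsEpiSC E5.75 against epiblast E5.75, Sall2 was higher and Zic5 and Pou3f1 were lower, where 21.5% of genes were called, 11.5% higher and 10.0% lower. In rsEpiSC E6.5 against epiblast E6.5, Zic2 and Sall2 were higher (12.5% called, 6.72% higher). In EpiSC against epiblast E5.75, Otx2 and Pou3f1 were lower (24.0% called, 11.4% lower). So 3 of 6, 2 of 6 and 2 of 6 passed in the comparisons with tissue, where between 12.5% and 24.0% of all genes did, and these counts describe the named genes only.

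**Figure D3:**
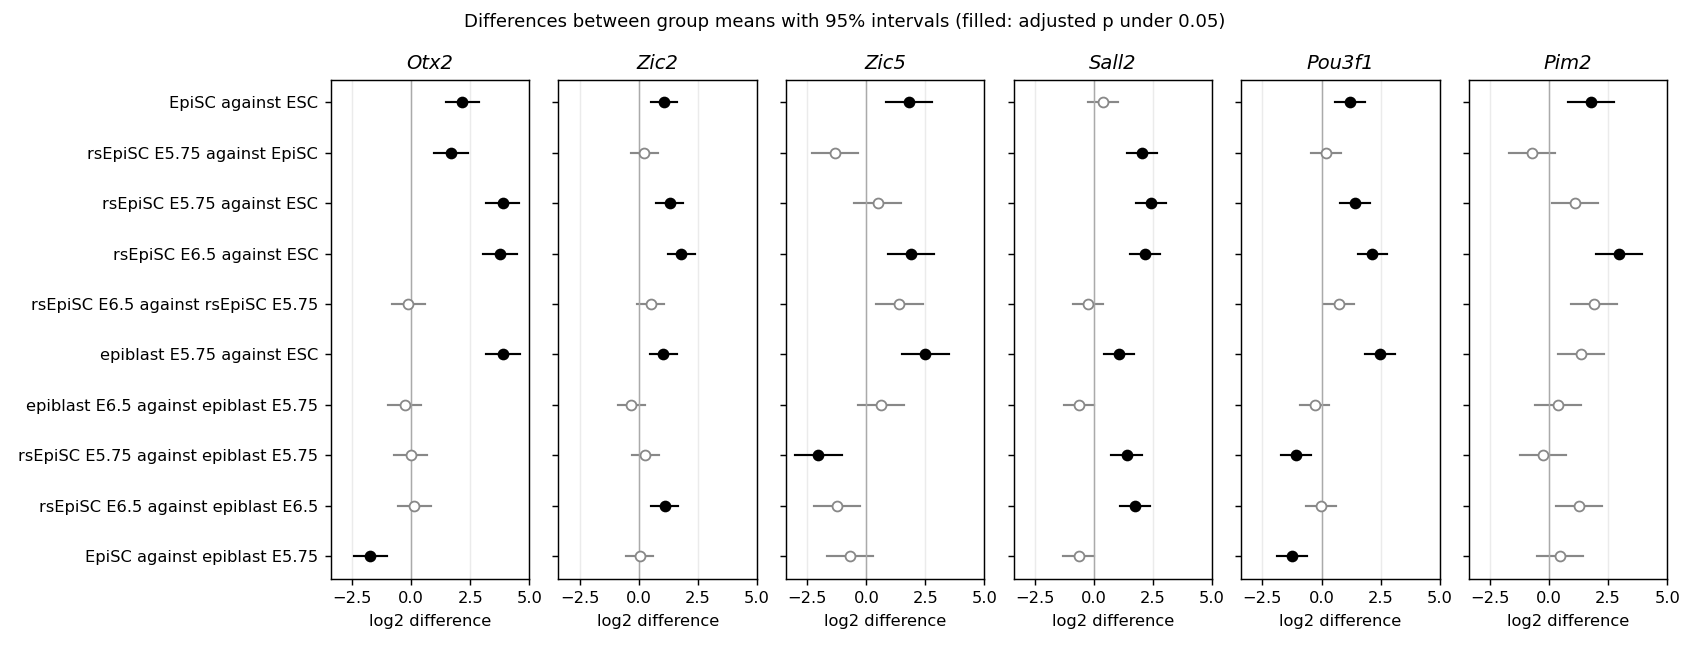
Difference of log2 group means for each of the 6 genes in 10 comparisons, first group minus second, with 95% intervals of the limma fit. Filled points passed an adjusted p of 0.05 and open points did not. Otx2 lies far right in all comparisons with ESC, Sall2 in all comparisons of rsEpiSC with another cell type or tissue, and Zic5 lies left of 0 where rsEpiSC E5.75 is set against epiblast E5.75.

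Stage within one kind of sample gave no call among the 6 genes. In rsEpiSC E6.5 against rsEpiSC E5.75, 0.0857% of all genes were called, and the 6 differences ranged from -0.26 ± 0.29 for Sall2 to 1.88 ± 0.45 for Pim2. In epiblast E6.5 against epiblast E5.75, 0.0225% were called, and the differences ranged from -0.62 ± 0.29 for Sall2 to 0.62 ± 0.45 for Zic5. The stage difference in rsEpiSC minus that in epiblast was tested as an interaction, which called 0.00902% of genes and none of the 6. Its 3 largest values were 1.51 ± 0.63 for Pim2 (limma, adjusted p = 0.545), 1.05 ± 0.41 for Pou3f1 (0.519) and 0.81 ± 0.37 for Zic2 (0.573). These results leave wide intervals, for example 0.13 to 2.88 for Pim2, and do not show that stage effects were equal.

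Of 13 measured relatives of the 6 genes, Pim1 and Pim3 among them, none passed as higher than in ESC in rsEpiSC E6.5, rsEpiSC E5.75, EpiSC or epiblast E5.75. Between 3.60% and 10.6% of all genes did, so a count of 0 of 13 is not far from the background. Sall1, a spalt factor like Sall2, averaged 8.59 ± 0.11 in rsEpiSC E6.5 against 7.24 ± 0.72 in ESC (SD, n = 2 each; limma, adjusted p = 0.0526). Pou5f1 was lower than in ESC in rsEpiSC E6.5 (-1.99 ± 0.33, limma, adjusted p = 0.00231), rsEpiSC E5.75 (-2.67 ± 0.33, 0.000248) and epiblast E5.75 (-1.30 ± 0.33, 0.0165). Sall4 was lower in epiblast E5.75 than in ESC (-0.85 ± 0.27, adjusted p = 0.0412) and higher in rsEpiSC E6.5 than in epiblast E6.5 (1.00 ± 0.27, 0.0310). Otx1, the nearest relative of Otx2, was higher in rsEpiSC E6.5 than in epiblast E6.5 (1.19 ± 0.28, adjusted p = 0.0186), where Otx2 differed by 0.14 ± 0.33. Pou3f2, which with Pou3f1 acts in neural cells, was higher in rsEpiSC E5.75 than in epiblast E5.75 (1.14 ± 0.33, adjusted p = 0.0304), where Pou3f1 was lower.

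Of 14 other measured genes of the primed epiblast, 3 were higher than in ESC in EpiSC and none lower: Sfrp2 (1.65 ± 0.29), which encodes a secreted Wnt antagonist, Sox3 (1.63 ± 0.31), a SoxB1 factor, and Lin28b (1.61 ± 0.28), an RNA-binding protein that blocks let-7. Against ESC, 10 were higher and none lower in rsEpiSC E6.5, 7 higher and 1 lower in rsEpiSC E5.75, and 9 higher and 1 lower in epiblast E5.75. Of all genes, 3.60% were higher than in ESC in EpiSC, 4.41% in rsEpiSC E6.5, 5.49% in rsEpiSC E5.75 and 10.6% in epiblast E5.75. This list was written with earlier results of these data known. The growth factor gene Fgf5, a standard marker of this tissue, and Dnmt3b, which encodes a DNA methyltransferase were, like Zic5, highest in epiblast E6.5. In rsEpiSC E5.75 against epiblast E5.75, Fgf5 differed by -4.75 ± 0.65 (limma, adjusted p = 0.000655) and Dnmt3b by -3.28 ± 0.55 (0.00209). Sox11, a SoxC factor of neural progenitors, was higher in rsEpiSC E5.75 than in EpiSC (2.11 ± 0.32, limma, adjusted p = 0.00286). So was Lef1, a nuclear partner of beta-catenin (2.43 ± 0.27, 0.000441), as Otx2 and Sall2 were. In this comparison 3 of the 14 genes passed as higher and 2 as lower, where 3.87% of all genes were called and 1.56% were higher. Utf1, a chromatin factor of pluripotent cells, was the 1 gene of these lists with a stage difference in rsEpiSC, 3.32 ± 0.37 higher at E6.5 (limma, adjusted p = 0.00587). It differed by -3.12 ± 0.37 between rsEpiSC E5.75 and ESC (0.000175). Utf1 averaged 5.87 in rsEpiSC E5.75 and 10.26 in EpiSC, and Grhl2 averaged 4.29 and 5.91.

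**Figure D4:**
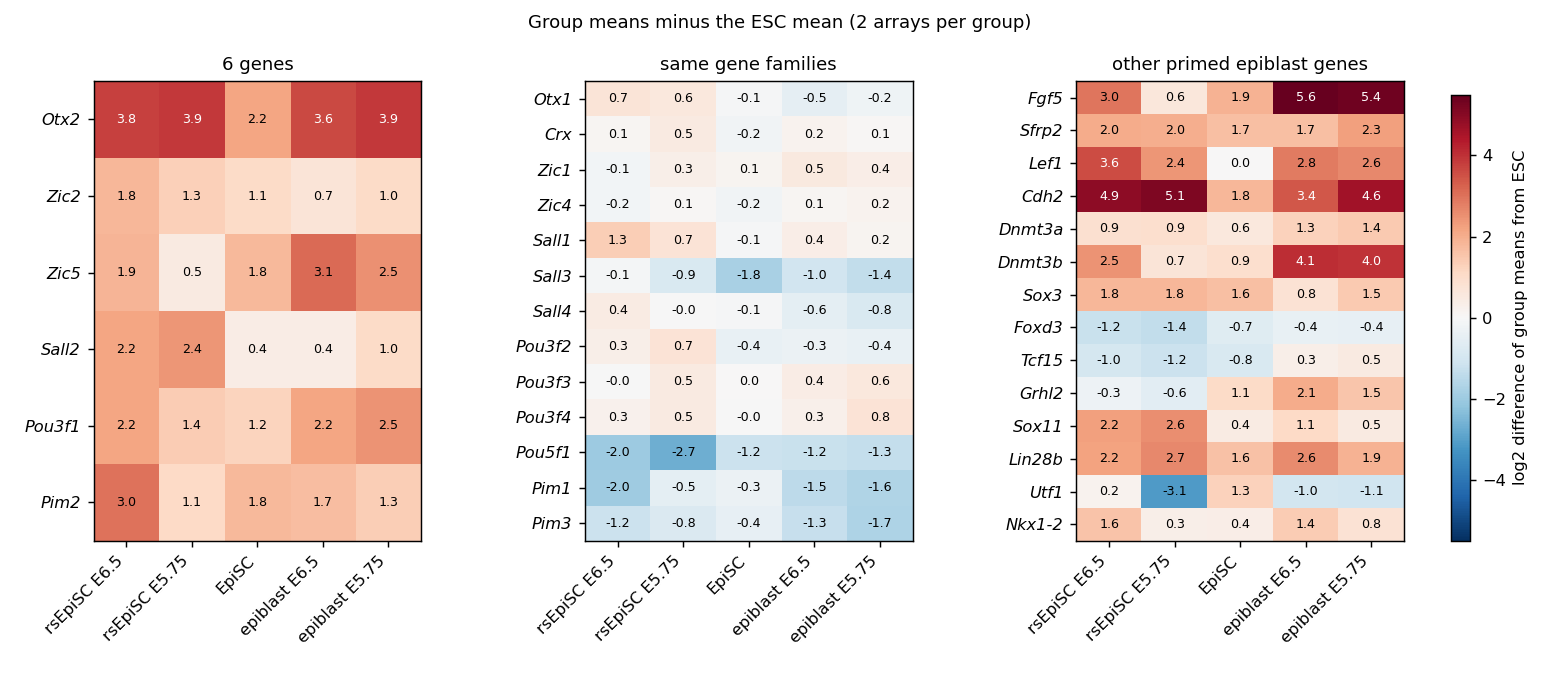
Log2 difference of each group mean (columns, 2 arrays each) from the ESC mean for the 6 genes, 13 genes of their families and 14 other genes of the primed epiblast (rows). Red is higher and blue lower than ESC. The left panel holds no blue cell, while Pou5f1, Pim1 and Pim3 are blue in all columns.

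The genes with the most similar profiles were sought among 8836 genes whose group means spanned at least 1 on the log2 scale, by Pearson's r over the 12 arrays, and are given as descriptions, since arrays share groups and this ranking always returns high values. For Otx2 they were Zfp266 (0.98), Zfp608 (0.97) and Myh10 (0.96), and for Pou3f1 Acsl4 (0.97), Pphln1 (0.97) and Dscc1 (0.96). For Zic2 they were Fzd2 (0.96), which encodes a Wnt receptor, Ctxn1 (0.94) and Sox3 (0.93), and for Zic5 Vrtn (0.95), Ugt8a (0.93) and Senp6 (0.93). For Sall2 they were Ephb1 (0.97), an ephrin receptor, Fbn2 (0.96) and Zfp41 (0.96). Ephb1 averaged 6.33 in rsEpiSC E6.5, 6.56 in rsEpiSC E5.75, and 3.95 to 4.68 in the other groups. Pim2 had no gene as close as those of the others, with Map2 at 0.88, Cyp26a1, an enzyme that degrades retinoic acid, at 0.86, and Adk at 0.86. Among the 6 genes themselves, r was highest between Otx2 and Pou3f1 (0.91), followed by Zic5 and Pou3f1 (0.84), Zic2 and Sall2 (0.82) and Zic2 and Pim2 (0.82), and lowest between Zic5 and Sall2 (-0.12).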

How the data were processed

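The authors deposited log2 signals for 41345 probe sets and 12 arrays (0.332 to 13.594, median 4.214), computed by RMA in oligo, per the submitters' processing notes. Versions and settings were not given in the sources used here. A human array is named in the labels' protocol, but the identifiers are those of the mouse probe set annotation that was used. Of the probe sets, 23521 carried 1 gene symbol, 1814 several and 16010 none. A RefSeq table (GRCm38.p6) held 99.18% of the identifiers with 1 symbol and changed 0 symbols. For 1082 genes with more than 1 probe set the one with the highest mean was kept, which left 22180 genes.

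Values were used as deposited. Group means were fitted for 6 groups with limma 3.58.1 (R 4.3.3), with a variance trend (residual degrees of freedom 6, prior 5.99), to test 10 pairs of groups, 1 interaction and a moderated F statistic. The p-values were adjusted by Benjamini and Hochberg over all genes in each comparison, with a threshold of 0.05. The script was tested on simulated data. Precision is limited by having 2 arrays per group.

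The 6 genes and all lists were chosen with earlier results of these data known, and the motif letters after the promoters had been read. Named genes are the 6 genes, their families, other primed epiblast genes, genes of LIF and STAT3, markers of other cell types, and for each of the 6 the 3 genes of highest correlation, without predicted genes and small RNAs. A few genes of these lists were not analysed here. The alternatives used the replicate number as a block, dropped each array in turn, or used only the arrays compared, quantile normalization, centring on medians, a filter on low signal, array weights and every probe set. The other Zic5 probe set and the 8 cultured arrays alone were added after seeing the data.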

Additional observations from a re-analysis of the deposited data

How the results depend on the processing

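Of 66 differences (6 genes in 10 pairs and 1 interaction), 29 passed as reported, 13 of these passed in every alternative, and 0 of the 66 changed sign where they had passed. The losses named gene by gene above are mainly those without 1 array. The counts of the 6 genes called moved as follows, and no cause of these moves was tested. A clause on a setting says what that setting changed, and not why a count moved. The fit with every probe set also changed standard errors, for Zic5 in EpiSC against ESC from 0.449 to 0.481. For EpiSC against ESC (5 as reported), 0 passed with only the arrays compared, which leaves fewer samples to estimate the spread, 1 with every probe set, which adjusts over more features, 3 with array weights or the 8 cultured arrays alone, 4 by the other Zic5 probe set, and 1 to 5 without 1 array at a time. For rsEpiSC E6.5 against ESC (6), 5 passed with only the arrays compared, with every probe set, and without the second ESC or the first rsEpiSC E6.5 array. For epiblast E5.75 against ESC (5), 3 passed with only the arrays compared or array weights, 4 after centring, 6 after quantile normalization or the filter on low signal, and 3 to 6 without 1 array. For rsEpiSC E6.5 against rsEpiSC E5.75 (0), 1 passed with only the arrays compared or array weights, and 0 to 1 without 1 array. For rsEpiSC E5.75 against epiblast E5.75 (3), 2 passed after centring or with array weights, and 0 to 3 without 1 array. For rsEpiSC E6.5 against epiblast E6.5 (2), 4 passed with only the arrays compared, 1 after quantile normalization, 3 by the other Zic5 probe set, and 1 to 3 without 1 array. For EpiSC against epiblast E5.75 (2), 1 passed with only the arrays compared and 3 after quantile normalization. For rsEpiSC E5.75 against EpiSC (2), 3 passed by the other Zic5 probe set and 1 to 2 without 1 array, and for rsEpiSC E5.75 against ESC (4), 2 to 5 without 1 array. A lone array is then taken to vary as the other groups do. Centring moved 10 of 36 group means of the 6 genes by more than their replicate SD. By Spearman's rho, the 3 most similar genes shared 2 with those reported for Zic5 and Pou3f1, 1 for Sall2 and 0 for Otx2, Zic2 and Pim2.

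The number of all genes called, and with it each share given above, moved too. With only the arrays compared it was 558 for EpiSC against ESC (1396 as reported) and 1261 for epiblast E5.75 against ESC (4762), and for rsEpiSC E6.5 against rsEpiSC E5.75 (19) it was 157 with only the arrays compared and 257 with array weights. Without 1 array, it was 829 to 1614 in EpiSC against ESC (lowest without the first EpiSC array), 835 to 2266 in rsEpiSC E6.5 against ESC (1988, second rsEpiSC E6.5 array), 1027 to 2575 in rsEpiSC E5.75 against ESC (2282, first rsEpiSC E5.75 array), 2969 to 5465 in epiblast E5.75 against ESC (second ESC array), 318 to 1005 in rsEpiSC E5.75 against EpiSC (858, second rsEpiSC E5.75 array), 3 to 25 in rsEpiSC E6.5 against rsEpiSC E5.75 (first rsEpiSC E6.5 array), 553 to 3754 in rsEpiSC E6.5 against epiblast E6.5 (2772, second rsEpiSC E6.5 array), 1627 to 5504 in rsEpiSC E5.75 against epiblast E5.75 (4768, first rsEpiSC E5.75 array), 2458 to 6100 in EpiSC against epiblast E5.75 (5321, first EpiSC array), and 0 to 155 in epiblast E6.5 against epiblast E5.75 (5, highest without the second epiblast E5.75 array).

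Over 15 pairs of groups, the correlation of the differences between replicate 1 and 2 ran from -0.260, between ESC and EpiSC, to 0.0575. Its sign depends on how replicates were numbered, so it cannot show whether arrays of different groups shared a batch. The replicate number as a block left 66 of 66 differences on their side of the threshold, and counts stayed at 5 for EpiSC against ESC and 6 for rsEpiSC E6.5 against ESC.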
